A study of Mus musculus with 8 samples.

Results

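Chemokine ligands are the small secreted or membrane-bound proteins that direct the movement of leukocytes and other cells. Their genes were taken as every row of the deposited tables whose symbol begins with Ccl, Cxcl, Cx3cl or Xcl followed by a digit, and rows of 1 symbol were summed. This gave 39 genes of 21882 symbols, listed as 55 of 27641 RefSeq transcripts. Of the 39 genes, 22 reached 1 FPKM (fragments per kilobase, a level normalised for transcript length and depth) in at least 1 deposited column and 17 stayed under 1 FPKM in all.

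Chemokines act through receptors that span the membrane and couple to G proteins, and they bind glycosaminoglycans, which lets them form gradients on cell surfaces and matrix. Homeostatic members such as Cxcl12 and Ccl21 are made steadily and place cells within tissues, whereas inflammatory members such as Ccl2 are induced by cytokines and microbial signals. In skin, keratinocytes are a known source of Ccl27 and Cxcl14, the dermal stroma of Cxcl12, and lymphatic endothelium of Ccl21.

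All libraries came from C57BL/6 mouse embryos. At embryonic day 16.5 (E16.5) the tissue was whole skin, of wild-type embryos and of embryos labelled Cyp26b1-/-, and the 2 libraries of a genotype were pooled into 1 deposited column. At E18.5, dermis and epidermis were sequenced apart, and in each tissue 1 library labelled En1cre;Cyp26b1f/- was set against 1 control library labelled Cyp26b1f/+. Cyp26b1 encodes a cytochrome P450 that degrades retinoic acid. En1cre recombines floxed alleles in the Engrailed 1 lineage, to which much of the trunk dermis belongs. Outside those cells the E18.5 mutant also carries 1 functional Cyp26b1 allele fewer than its control, so the 2 differences cannot be told apart. The labels do not say whether libraries of a group came from separate animals, and dermis and epidermis libraries carry different sample numbers. Other E18.5 libraries, if any, were not analysed here.

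No spread between libraries can be computed from pooled columns or from 1 library a group, and the read depth behind each value is unknown. At E16.5 the error of a transcript is therefore the standard error (SE) implied by the authors' deposited Cuffdiff statistic. The test was recomputed after the median log2 fold of all tested transcripts, 0.47, had been subtracted, with Benjamini-Hochberg adjustment over all 19608 of them, and the adjusted value is given as q. At E18.5 no test was made and genes were counted at a 2-fold difference. Sizes of difference are log2((mutant + 1)/(control + 1)) of FPKM minus the median over genes of at least 1 FPKM, which was 0.43 in E16.5 skin, 0.12 in dermis and -0.18 in epidermis. They are called relative differences here. The pseudocount of 1 shrinks the fold of low genes before the median is subtracted. Relative differences of low genes are therefore pulled towards the negative of that median, not towards 0. Summed Cyp26b1 was not lower in any library labelled mutant (34.95 and 58.16 FPKM in E16.5 skin, 54.16 and 101.73 in dermis, 4.97 and 13.68 in epidermis, control first). Whole-transcript values neither check nor contradict the labelled deletions. The dermis control library held keratinocyte transcripts, with Krt5 at 6264.94 FPKM, so its label does not describe a tissue free of epithelium.

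Homeostatic ligands made up most of the summed chemokine level in whole skin and dermis, but not in epidermis. In wild-type E16.5 skin the 39 genes summed to 401.67 FPKM, of which Cxcl14 made up 54.3%, and Cxcl12, Ccl21a, Ccl21b and Ccl27a followed at 58.79, 36.36, 31.06 and 12.04 FPKM. The control dermis summed to 373.27 FPKM and the control epidermis to 105.94 FPKM, in tables that were normalised separately. Cxcl14 made up 57.4% of the dermal and 39.5% of the epidermal sum. The 8 homeostatic genes summed to 354.13 FPKM in wild-type skin, 285.98 FPKM in control dermis and 44.27 FPKM in control epidermis, where epithelial and transmembrane ligands summed to 26.03 and 21.58 FPKM. In the mutant columns the sums were 348.13, 347.2 and 70.87 FPKM for skin, dermis and epidermis, and the share of Cxcl14 was 38.9%, 38.4% and 34.6%. The sum and the share of Cxcl14 were thus lower in the mutant column of each table. All these sums include Ccl21a and Ccl21b, which carry the authors' mark for too little data. In dermis Ccl21a was 18.68 and 40.56 FPKM and Ccl21b 26.56 and 49.78 FPKM, control first. The sizes of the sums and shares therefore depend on those 2 genes.

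At 1 FPKM in either group, 21 of the genes were seen in E16.5 skin, 16 in dermis and 8 in epidermis. Of these, 6 reached it in all 3 tables, which were Ccl25, Ccl27a, Ccl27b, Cx3cl1, Cxcl14 and Cxcl16. A further 11 reached it in 2 tables (Ccl2, Ccl6, Ccl7, Ccl9, Ccl11, Ccl12, Ccl19, Ccl21a, Ccl21b, Ccl24 and Cxcl12), and 5 in 1 table. Those 5 were Cxcl13, Ccl20, Ccl3 and Ccl4 in E16.5 skin and Xcl1 in epidermis. Just inside the limit, by their higher column, lay Ccl27b in epidermis at 1.13, Ccl11 in dermis at 1.2 and Ccl7 at E16.5 at 1.32 FPKM. Ccl27b thus counts in all 3 tables on a value near the limit. Just outside it lay Cxcl10 at 0.95, Ccl26 at 0.94 and, in epidermis, Ccl12 at 0.96 FPKM.

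**Figure D1:**
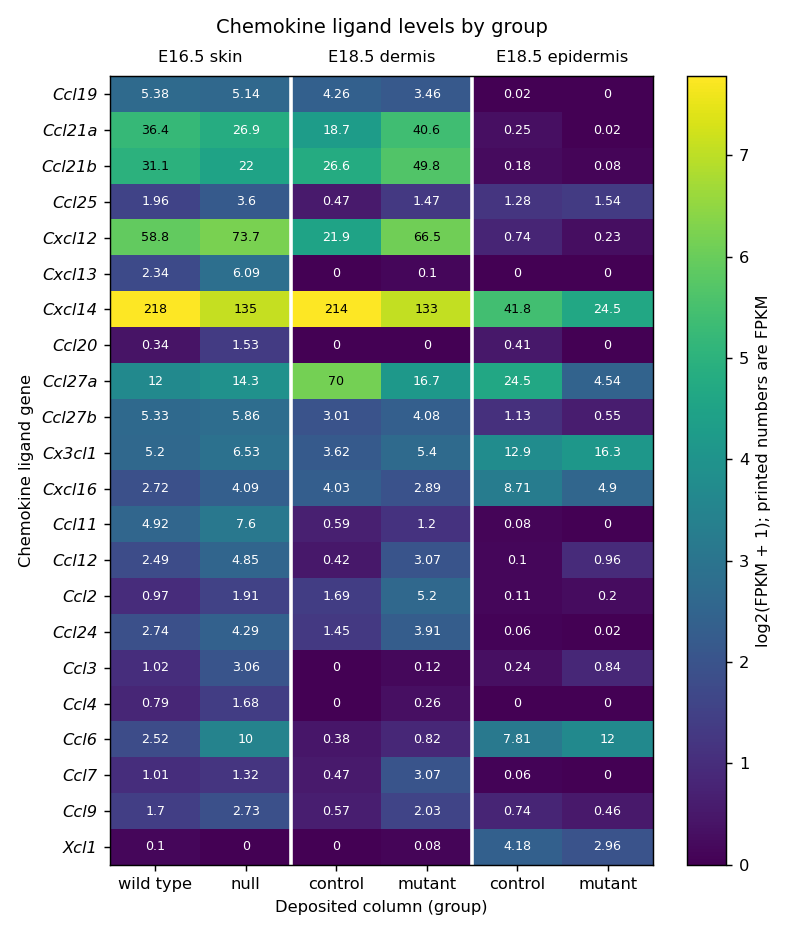
Levels of the 22 chemokine ligand genes that reached 1 FPKM, one row a gene and one column a deposited group. Colour is log2(FPKM + 1) and each printed number is FPKM. E16.5 columns pool 2 libraries and E18.5 columns hold 1. Cxcl14 has the brightest cell in each column, and most inflammatory CC ligands are under 8 FPKM in all columns.

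Among the 29 chemokine ligands with a tested transcript at E16.5, 3 rose and 1 fell relative to the median transcript, and 1 more counted as lower by the authors' q alone. Over all 16303 tested genes, counted in the same way, 8.26% were higher and 9.89% lower, so the share of ligands called was near the background in both directions. The genes that rose were Ccl6, Cxcl13 and Ccl20, and the one that fell was Cxcl14. Ccl8, listed at 0 in null skin, has no finite fold to recompute and kept the authors' call. By the q-value in the authors' deposited table, without the shift removed, 8 ligands were higher and 2 lower, against 54.6% and 3.46% of all tested genes. The 5 extra ones were Ccl3, Ccl9, Cxcl11, Cxcl12 and Cxcl16. Of the 19 ligands at 1 FPKM whose estimate the authors did not mark as having too little data, 12 had a positive and 7 a negative relative difference. On the authors' scaling the split was 17 to 2. The median relative difference of the 19 ligands was 0.07. Ccl2, Ccl4 and Ccl20 reached 1 FPKM only in null skin, so the filter itself required a higher null value for them. With a pseudocount of 5, Ccl2, Ccl4, Ccl9, Ccl20, Ccl24, Ccl25 and Cxcl16 turned negative, so the split depends on the pseudocount.

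Cxcl14 was the only one of the 39 genes that reached 1 FPKM in all tables and was lower in the mutant column of each on both scalings. It encodes a CXC chemokine made constitutively by keratinocytes and other epithelial cells, which attracts monocytes and dendritic cell precursors. It stood at 218.24 FPKM in wild-type and 135.42 FPKM in null E16.5 skin. Its single transcript fell by 1.16 (log2, relative to the median transcript) with an SE of 0.14 and q = 6.28e-14 by the recomputed Cuffdiff statistic. The fall of Cxcl14 was thus several times its model error. In dermis it was 214.1 FPKM in the control and 133.3 FPKM in the mutant library, a ratio of 0.623, and in epidermis 41.8 and 24.49 FPKM, a ratio of 0.586. The E16.5 ratio was 0.621. Relative differences were -1.11, -0.80 and -0.57 in skin, dermis and epidermis, so the epidermal one was the nearest to the median gene. Keratinocyte markers moved with Cxcl14 in part. At E16.5, 6 of 8 suprabasal markers fell (median relative difference -2.25), and of 6 tested basal markers 1 fell, which was Krt14 (734 and 426 FPKM). Over all tested genes 9.89% fell. The suprabasal sum was nevertheless higher in null skin, at 9061.62 FPKM in wild-type and 10551.9 FPKM in null. By the authors' q, with the shift kept, 5 suprabasal markers were lower and 1 higher, where 3.46% and 54.6% of all tested genes were. No marker of either list was at 0. At E18.5 the summed basal markers had mutant to control ratios of 0.306 in dermis and 0.326 in epidermis. The suprabasal sums had ratios of 0.649 and 1.02. The part of these markers in the Cxcl14 values was not tested.

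Ccl6 had the largest positive relative difference, 1.22, of the ligands at 1 FPKM in E16.5 skin. It encodes a rodent CC chemokine of myeloid cells that binds Ccr1. It went from 2.52 FPKM in wild-type to 10.05 FPKM in null skin, a rise of 1.53 (log2, relative to the median transcript; SE 0.28, recomputed q = 1.75e-06). Ccl6 was also higher in the mutant epidermis, at 12.04 against 7.81 FPKM (relative difference 0.74), and was under 1 FPKM in dermis. Its locus on chromosome 11 (mm9, 83401384 to 83406589, minus strand) overlaps E230016K23Rik, and without a stated strand setting reads of the overlapping genes cannot be told apart. None of 14 macrophage genes rose or fell at E16.5 in the recomputed test. By the authors' q with the shift kept, 10 were higher, where 54.6% of all tested genes were. The 14 genes summed to 240.86 FPKM in wild-type and 329.65 FPKM in null skin.

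Cxcl13, the B cell chemokine that signals through Cxcr5, went from 2.34 to 6.09 FPKM at E16.5. This was a rise of 0.91 relative to the median transcript (log2, SE 0.32, recomputed q = 0.033). At E18.5 it was listed at 0 in 3 of the 4 columns and at 0.1 FPKM in the mutant dermis. Its receptor Cxcr5 was under 1 FPKM in every column.

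Ccl20, the Ccr6 ligand that epithelia make on contact with inflammatory signals, went from 0.34 to 1.53 FPKM at E16.5. Transcript NM_001159738 carried all of it and rose by 1.69 (log2, SE 0.58, recomputed q = 0.0252), while NM_016960 was listed at 0 in both groups. Both the Cxcl13 and the Ccl20 call were lost at a threshold of 0.01. Ccl8, a monocyte chemokine, was under 1 FPKM throughout. It was 0.29 FPKM in wild-type skin and listed at 0 in null skin, and its call is the q of 0.0438 in the authors' deposited table, which keeps the shift. This call too was lost at 0.01.

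Ccl3 and Ccl4, which attract monocytes and lymphocytes, did not pass the recomputed test. Ccl3 was 1.02 FPKM in wild-type and 3.06 FPKM in null skin, with a log2 difference of 1.12 from the median transcript (SE 0.46, recomputed q = 0.0807). Ccl4 was 0.79 and 1.68 FPKM (recomputed q = 0.546). At a 2-fold relative difference only Ccl6 was higher and only Cxcl14 lower at E16.5, where 1.67% of 14154 genes were that much higher and 2.85% lower.

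**Figure D2:**
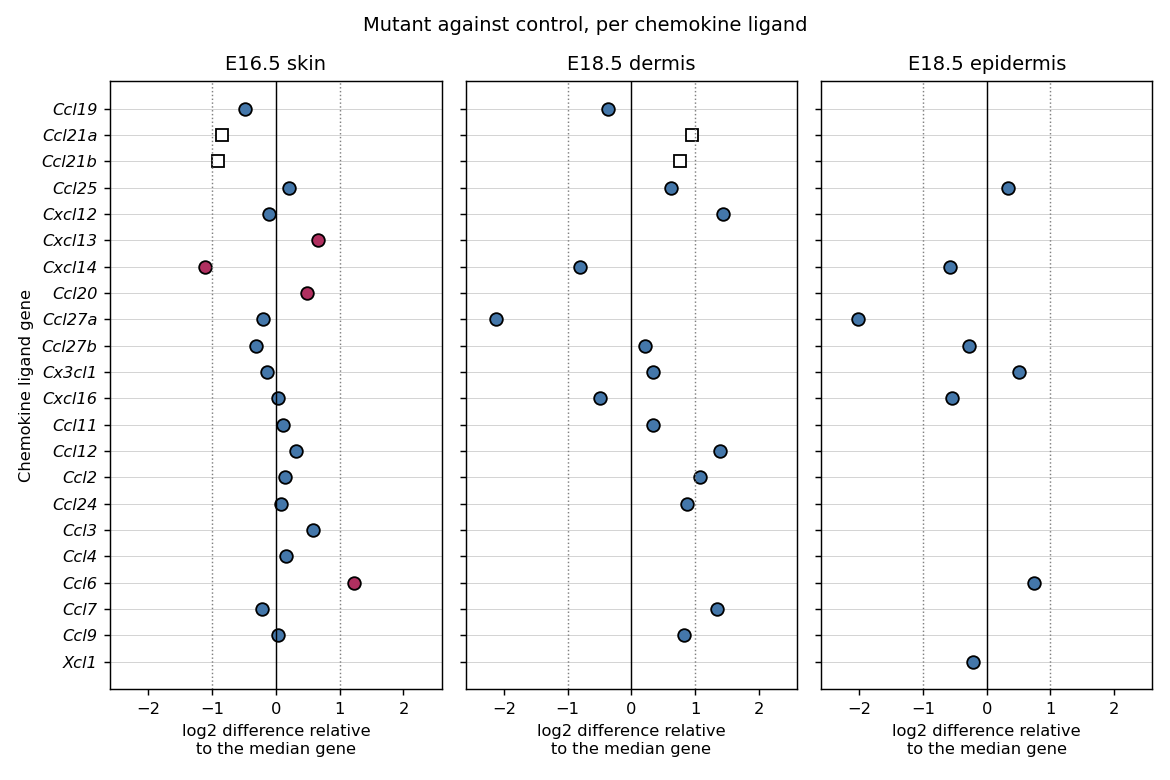
Relative log2 difference of each chemokine ligand at 1 FPKM or more in the comparison shown, with the median gene at 0 and dotted lines at a 2-fold difference. Red points passed the recomputed E16.5 test, open squares carry the authors' mark for too little data, and the E18.5 panels had no test. Cxcl14 lies left of 0 in all panels, and Ccl27a lies beyond the left dotted line in both E18.5 panels.

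Upstream sequence is shown for genes called at E16.5, since retinoic acid receptors are known to bind repeats of the half-site AGGTCA. Promoters of 250 bases before to 50 bases after the start, from RefSeq (GRCm38.p6 table), were matched for 27 of the 39 genes, and mm9 positions come from exact matches in that build. AGGTCA was found, on either strand, in 12 of the 33 promoters of these genes and in 16.3% of 32851 promoters of the same length. The 12 promoters belong to 11 of the 27 genes. All of Ccl6, Cxcl13, Ccl20 and Cxcl14 hold one, the promoter of Ccl8 does not, and genes that were not called, such as Ccl3 and Ccl25, do. The windows below run 5′ to 3′ along the gene's strand with the half-site in capitals, written TGACCT where it lies on the other strand.
Ccl6: tagcccaccaTGACCTttgccctcgc
Cxcl13: acattgcagcTGACCTaagaaagaga
Ccl20: accccccaccTGACCTtcacaccttc
Cxcl14: tgctcccgccTGACCTtcttccaagg

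Counted from the start site, the capitals begin at position -88 in Ccl6, -87 in Cxcl13, -174 in Ccl20 and -130 in Cxcl14. A half-site alone is a description of these letters, and it occurs beside genes that rose and beside the gene that fell. For Cxcl14, the most abundant ligand, the 250 bases upstream of the start on the minus strand of chromosome 13 (mm9, chr13:56397913-56398162) are shown in full, with the same half-site in capitals.
Cxcl14: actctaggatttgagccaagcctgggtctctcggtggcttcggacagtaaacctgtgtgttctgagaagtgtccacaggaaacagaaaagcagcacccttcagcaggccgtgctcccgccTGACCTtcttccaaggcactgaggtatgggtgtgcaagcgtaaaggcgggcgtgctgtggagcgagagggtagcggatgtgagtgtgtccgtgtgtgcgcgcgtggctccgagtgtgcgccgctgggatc

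Inflammatory chemokines are textbook targets of NF-κB, so a κB consensus (GGG, then any 2 bases, then TTTCC) was searched on both strands as well. It was found in 5 of the 33 promoters, which belong to 5 of the 27 genes (Ccl9, Ccl20, Cxcl1, Cxcl2 and Cxcl3), and in 1.63% of all promoters. Every match is given with its letters in capitals. The match shares no base with an AGGTCA half-site in Ccl20, the only gene of these that holds both.
Ccl20: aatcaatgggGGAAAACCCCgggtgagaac
Ccl9: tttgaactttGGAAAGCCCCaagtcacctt
Cxcl1: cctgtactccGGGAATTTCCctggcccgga
Cxcl1, other match: ccggttgcagGGAAACACCCtgtactccgg
Cxcl2: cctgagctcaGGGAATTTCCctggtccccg
Cxcl2, other match: cctggtccccGGGCTTTTCCagacatcgtg
Cxcl3: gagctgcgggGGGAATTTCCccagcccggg

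The matches begin at position -80 in Ccl20, -35 in Ccl9, -71 and -89 in Cxcl1, -97 and -78 in Cxcl2 and -73 in Cxcl3. Of these genes Ccl20 rose at E16.5, Ccl9 did not pass the recomputed test, and Cxcl1, Cxcl2 and Cxcl3 were under 1 FPKM in every column.

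Ccl27a, the keratinocyte chemokine that draws Ccr10-bearing lymphocytes to skin, had the widest relative difference of the ligands in both E18.5 tissues. In dermis it was 69.97 FPKM in the control and 16.68 FPKM in the mutant library, a ratio of 0.238 and a relative difference of -2.13. In epidermis it was 24.49 and 4.54 FPKM, a ratio of 0.185 and a relative difference of -2.02. In E16.5 skin it was 12.04 and 14.29 FPKM. No Ccl27a transcript was called there, and its summed difference was -0.20 relative to the median gene and 0.23 on the authors' scaling. Ccl27a was the only ligand that was 2-fold lower in dermis, where 13.9% of 13398 genes were, and the only one in epidermis, where 4.86% of 11362 genes were. It stayed 2-fold lower in both tissues under all 7 alternative settings.

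Most of the E18.5 difference in Ccl27a came from 1 of its 4 listed transcripts. NM_011336 was 54.22 FPKM in control and 3.83 FPKM in mutant dermis, and 20.74 and 2.24 FPKM in control and mutant epidermis. NM_001164044 was 11.87 and 7.93 FPKM in dermis and 1.46 and 0.04 FPKM in epidermis. NM_001048179 was 3.27 and 3.48 FPKM in dermis and 1.82 and 1.79 FPKM in epidermis, so it was at nearly the same level in both libraries of each tissue. NM_001164045 was at most 1.44 FPKM in the E18.5 columns. At E16.5 NM_011336 was 3 and 4.34 FPKM and was not the leading transcript, which was NM_001164044 at 6.13 and 6.64 FPKM. The split of reads among overlapping transcripts is the authors' estimate.

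Ccl27a lies on the minus strand of chromosome 4 (mm9, 41716340 to 41721120) and shares 8 annotated bases with Il11ra1 on the other strand. Il11ra1 itself was 181.65 and 114.3 FPKM in dermis and 7.7 and 2.14 FPKM in epidermis, and it fell at E16.5 (51.05 and 48.78 FPKM). RefSeq lists promoters at 3 starts of Ccl27a (41721049, 41720974 and 41717085), and the table does not tie a start to NM_011336 or to any other transcript. The 250 bases upstream of the outer starts are shown because of the E18.5 difference (mm9, chr4:41721050-41721299 and chr4:41717086-41717335, minus strand). Of the 3 promoters only that of the distal start holds an AGGTCA half-site, in capitals.
Ccl27a, distal start: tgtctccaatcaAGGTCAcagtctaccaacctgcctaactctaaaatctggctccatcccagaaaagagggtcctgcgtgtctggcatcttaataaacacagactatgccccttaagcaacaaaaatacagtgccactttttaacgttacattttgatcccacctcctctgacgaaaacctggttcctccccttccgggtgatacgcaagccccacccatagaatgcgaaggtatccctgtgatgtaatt
Ccl27a, proximal start: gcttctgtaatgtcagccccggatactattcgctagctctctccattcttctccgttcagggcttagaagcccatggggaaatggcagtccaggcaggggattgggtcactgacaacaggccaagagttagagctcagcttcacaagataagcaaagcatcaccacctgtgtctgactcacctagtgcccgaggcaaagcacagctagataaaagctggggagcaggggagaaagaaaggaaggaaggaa

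Basal keratinocyte markers were lower in the same mutant libraries. The 7 markers summed to 12395.5 FPKM in control and 3797 FPKM in mutant dermis (ratio 0.306, 6 of 7 at least 2-fold lower) and to 5740 and 1873 FPKM in epidermis (ratio 0.326, 5 of 7). Over all genes, 13.9% were 2-fold lower in dermis and 4.86% in epidermis. None of the 7 markers was at 0 in any column. Krt14 was 4276 and 1115 FPKM in dermis and 1496 and 322 FPKM in epidermis. The 8 suprabasal markers summed to 482 and 313 FPKM in dermis and 20112 and 20529.5 FPKM in epidermis. Their part in the Ccl27a values was not tested, and in bulk tissue fewer cells of a type and less RNA per cell cannot be told apart.

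Ccl27b, a near copy of Ccl27a, did not follow it in dermis. It was 3.01 and 4.08 FPKM there, 1.13 and 0.55 FPKM in epidermis and 5.33 and 5.86 FPKM at E16.5. Its rows include copies of 1 transcript at several loci of chromosome 4, so a single locus cannot be read from them.

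**Figure D3:**
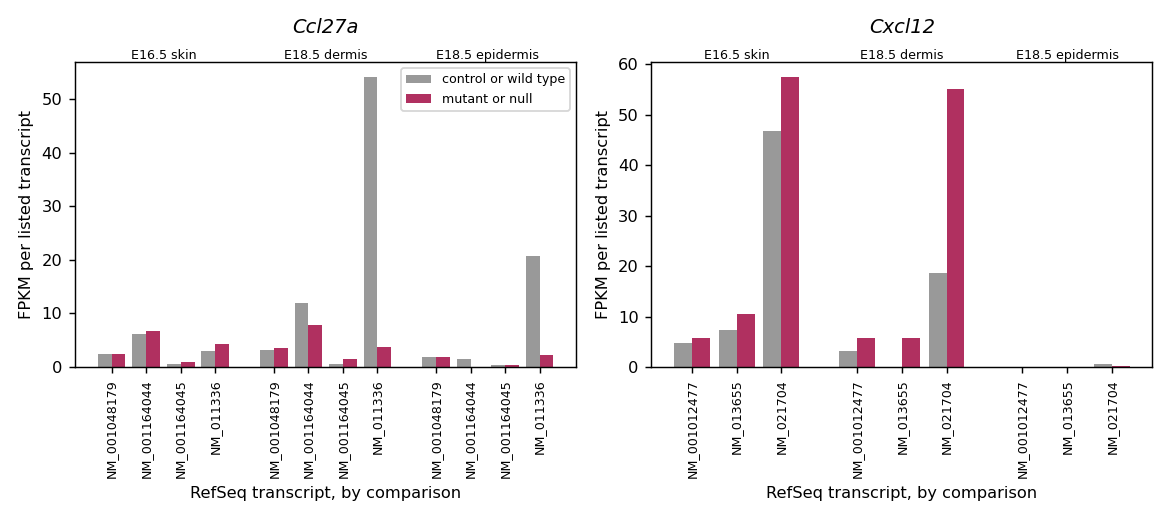
FPKM of each listed transcript of Ccl27a and Cxcl12 in the 3 comparisons, grey for control or wild type and red for mutant or null. Bars start at 0 and have no error bar, since no spread between libraries can be computed. NM_011336 accounts for the tall control bars of Ccl27a at E18.5, and NM_021704 for those of Cxcl12 in skin and mutant dermis.

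Cxcl12, the stromal ligand of Cxcr4 that guides haematopoietic, endothelial and other migrating cells, was higher in the mutant dermis than in its control. It was 21.91 FPKM in the control and 66.5 FPKM in the mutant library (ratio 3.04, relative difference 1.44). Transcript NM_021704 was 18.64 and 55.12 FPKM, NM_001012477 was 3.27 and 5.68 FPKM, and NM_013655 was listed at 0 in the control and 5.7 FPKM in the mutant. All of its transcripts were therefore higher in the mutant dermis. In E16.5 skin Cxcl12 was 58.79 and 73.68 FPKM, a relative difference of -0.11, and none of its transcripts passed the recomputed test. In epidermis it was under 1 FPKM.

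The mutant dermis library also carried more of several stromal markers. The 6 dermal fibroblast markers with usable estimates, of 8, summed to 655 FPKM in the control and 1333 FPKM in the mutant, 2 of them 2-fold higher. The 6 pericyte and smooth muscle markers summed to 142 and 315 FPKM, 3 of them 2-fold higher. Of all genes in dermis, 14% were 2-fold higher. No marker of either list was at 0. Their part in the dermal Cxcl12 values was not tested.

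Ccl21a and Ccl21b, the lymphatic ligands of Ccr7 that bring dendritic cells and T cells into lymphatic vessels, carry the authors' mark for too little data and are given as values only. Ccl21a was 36.36 and 26.9 FPKM at E16.5 and 18.68 and 40.56 FPKM in dermis. Ccl21b was 31.06 and 22 FPKM at E16.5 and 26.56 and 49.78 FPKM in dermis. Both were at most 0.25 FPKM in epidermis. Both were thus lower in null than wild-type skin and higher in mutant than control dermis. The 6 lymphatic endothelial markers, with none at 0, summed to 77.3 and 107 FPKM at E16.5 and 11.7 and 83.5 FPKM in dermis. Most of the dermal difference lay in Lyve1 (4.17 and 49.52 FPKM), which macrophages also express, while Prox1, which defines lymphatic endothelium, was 0.36 and 0.28 FPKM. Their part was not tested. Reads of the near-identical Ccl21 copies cannot be assigned to 1 locus, and Ccl21c was listed at 0 throughout.

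Ccl19, the other Ccr7 ligand, was 5.38 and 5.14 FPKM at E16.5 and 4.26 and 3.46 FPKM in dermis, with relative differences of -0.48 and -0.36. Its E16.5 rows did not pass the recomputed test (q = 0.47). Ccl25, the Ccr9 ligand of thymus and gut, was the only gene seen in all tables whose relative difference was positive in each. It was 1.96 and 3.6 FPKM at E16.5, 0.47 and 1.47 FPKM in dermis and 1.28 and 1.54 FPKM in epidermis, and neither of its transcripts was called at E16.5. In dermis Ccl25 reached 1 FPKM only in the mutant library, so the filter itself required a higher mutant value there. Its transcripts went opposite ways at E18.5. NM_009138 was 0 and 1.23 FPKM in dermis and 0.53 and 1.19 FPKM in epidermis, and NR_033527 was 0.47 and 0.24 FPKM and 0.75 and 0.35 FPKM. With a pseudocount of 5 the E16.5 relative difference of Ccl25 was -0.011.

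The transmembrane chemokines Cx3cl1 and Cxcl16, which tether leukocytes until they are shed, were higher in epidermis than most other ligands. Cx3cl1, the ligand of Cx3cr1, was 5.2 and 6.53 FPKM at E16.5 (relative difference -0.15), 3.62 and 5.4 FPKM in dermis (0.35) and 12.87 and 16.34 FPKM in epidermis (0.50). On the authors' scaling the mutant column was the higher in each table, while at E16.5 the sign turned once the shift was removed. Cxcl16, the ligand of Cxcr6, was 2.72 and 4.09 FPKM at E16.5 (0.02), 4.03 and 2.89 FPKM in dermis (-0.49) and 8.71 and 4.9 FPKM in epidermis (-0.54). It was lower in the mutant library of both E18.5 tissues and was not called at E16.5. Its annotated locus overlaps Zmynd15.

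Inflammatory CC chemokines were low in all control columns and summed higher in each mutant column on the authors' scaling, which keeps the E16.5 shift. The 13 genes of this class summed to 18.83 and 39.16 FPKM in E16.5 skin, 5.57 and 20.28 FPKM in dermis, and 9.2 and 14.52 FPKM in epidermis. Of the 12 tested at E16.5, 1 (Ccl6) was called higher and 1 (Ccl8) lower, against 8.26% and 9.89% of all tested genes. In epidermis only Ccl6 of the 13 reached 1 FPKM, and it supplied most of that difference. In dermis 6 of them reached 1 FPKM, with relative differences from 0.35 for Ccl11 to 1.40 for Ccl12. Of these, Ccl7, Ccl9, Ccl11 and Ccl12 reached it only in the mutant library, so the filter itself required a higher mutant value, and their sign supports nothing. Among the 14 ligands of dermis without the low-data mark, 4 were 2-fold higher (Ccl2, Ccl7, Ccl12 and Cxcl12) and 1 was 2-fold lower. Of all 13398 genes in dermis, 14% were 2-fold higher. Over the 14 ligands the median relative difference was 0.49.

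The Ccr2 ligands Ccl2, Ccl7 and Ccl12, which recruit monocytes, are neighbours on chromosome 11 (mm9, from 81849073 at Ccl2 to 81916902 at Ccl12, plus strand). Ccl2 was 1.69 FPKM in control and 5.2 FPKM in mutant dermis. Ccl7 was 0.47 and 3.07 FPKM, and Ccl12 was 0.42 and 3.07 FPKM. The ratios were 3.08, 6.53 and 7.31, from control values near or under 1 FPKM. Between them in the genome lies Ccl11, which attracts eosinophils, with 0.59 and 1.2 FPKM in dermis. At E16.5 the same genes were 0.97 and 1.91 FPKM (Ccl2), 1.01 and 1.32 FPKM (Ccl7), 4.92 and 7.6 FPKM (Ccl11) and 2.49 and 4.85 FPKM (Ccl12), and none passed the recomputed test. In epidermis all were under 1 FPKM.

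Ccl24, a second eosinophil chemokine acting on Ccr3, was 1.45 and 3.91 FPKM in dermis and 2.74 and 4.29 FPKM at E16.5. Ccl9, a myeloid chemokine next to Ccl6 on chromosome 11, was 0.57 and 2.03 FPKM in dermis and 1.7 and 2.73 FPKM at E16.5, where its recomputed q was 0.693. Their relative differences in dermis were 0.88 and 0.83, just short of 2-fold. Ccl3 and Ccl4 were each listed at 0 in control dermis and were at most 0.26 FPKM in the mutant.

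Most macrophage markers were higher in the same mutant dermis. The 14 markers summed to 347 FPKM in the control and 500 FPKM in the mutant, 9 of 14 were 2-fold higher, none was at 0, and their median relative difference was 1.40. Of all genes in dermis, 14% were 2-fold higher. Emr1, the F4/80 antigen, was 1.09 and 8.73 FPKM, and Lyz2, a lysozyme of myeloid cells, 6.12 and 43.28 FPKM. Of the complement genes, C1qa went the other way, at 137 FPKM in the control and 91.7 FPKM in the mutant, and C1qc was nearly level, at 83.1 and 87.9 FPKM. Mast cell markers summed to 824 and 2642 FPKM, 4 of 9 of them 2-fold higher, with Fcer1a at 0 in the control. The part of these cell markers in the dermal chemokine values was not tested.

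In epidermis 8 ligands reached 1 FPKM. None was 2-fold higher, where 3.49% of all genes were, and 3 had positive and 5 negative relative differences, with a median of -0.24. The 3 were Ccl6, Cx3cl1 and Ccl25. Xcl1, made by T cells and natural killer cells to attract Xcr1-bearing dendritic cells, was seen almost only here, at 4.18 FPKM in the control and 2.96 FPKM in the mutant. It was at most 0.1 FPKM in the other columns. The 9 T cell markers summed to 21.4 and 9.55 FPKM in the same libraries, with Trat1 at 0 in the mutant, and Cd3e was 1.26 and 0.66 FPKM. Langerhans and dendritic markers summed to 314 and 30.8 FPKM, with Cd74 at 172 and 0.59 FPKM and Cd207 and Flt3 at 0 in the mutant. Macrophage markers summed to 211 and 99.3 FPKM, although Ccl6 was higher in that mutant library. The part of these cells in the epidermal values was not tested.

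The remaining ligands were under 1 FPKM in every column. They include the 5 neutrophil-drawing ligands of Cxcr2 among the 39 genes: Cxcl1 (highest value 0.56 FPKM), Cxcl2 (0.21), Cxcl3 (0.11), Cxcl5 (0.48) and Cxcl15 (0.21). Ligands whose symbols do not match the rule were not examined. The 3 interferon-induced ligands of Cxcr3, which draw activated T cells, were as low. Cxcl9 reached 0.37, Cxcl10 0.95 and Cxcl11 0.22 FPKM. The Ccr4 ligands Ccl17 and Ccl22 reached 0.72 and 0.03 FPKM, Ccl5 0.53, Ccl26 0.94, Cxcl17 0.64, Ccl8 0.29 and Ccl1 0.2 FPKM. Ccl28 and Ccl21c were listed at 0 in every column. At these levels no difference between groups is given for them, apart from the Ccl8 call.

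Of 18 chemokine receptors, 8 reached 1 FPKM at E16.5, and of the 14 tested 1 rose and 3 fell. Over all tested genes 8.26% rose and 9.89% fell. By the q in the authors' deposited table, with the shift kept, 4 receptors were higher and 0 lower, against 54.6% and 3.46% of all tested genes. Cxcr2 rose from 3.32 to 13.79 FPKM (relative difference 1.35), and its 5 ligands among the 39 genes were all under 1 FPKM. Its dermal values were 0.58 and 6.33 FPKM, and its epidermal values 3.36 and 1.84 FPKM. Of 8 neutrophil granule markers tested at E16.5 none rose and 3 fell, and their sum was 10.9 and 6.78 FPKM. Elane was 0.39 and 0.13 FPKM there.

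The receptors that fell at E16.5 were Cxcr4, Ccr8 and Ccr4. Cxcr4, the receptor of Cxcl12, was 18.24 and 17.36 FPKM, a relative difference of -0.50 and nearly level on the authors' scaling. In dermis, where Cxcl12 was also higher, Cxcr4 was 8.5 and 31 FPKM (1.63), and in epidermis 4.98 and 0.96 FPKM (-1.43). Ccr8, the receptor of Ccl1, was 8.9 and 6.47 FPKM at E16.5, and Ccr4 was 3.06 and 2.1 FPKM. Ccr10, the receptor of Ccl27, was 1.56 and 1.68 FPKM at E16.5, 4.22 and 2.85 FPKM in dermis and 3.64 and 8.58 FPKM in epidermis. In mutant epidermis Ccr10 was thus higher while Ccl27a was lower, and in mutant dermis both were lower. Cx3cr1, the receptor of Cx3cl1, was 7.66 and 12.98 FPKM at E16.5 and not called, 0.98 and 6.38 FPKM in dermis, and 4.56 and 2.57 FPKM in epidermis.

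Atypical receptors bind chemokines without classical signalling and clear them. At E16.5 none of the 5 rose and 2 fell, which were Ccrl1 (3.91 and 2.93 FPKM) and Ccbp2 (0.87 and 0.44 FPKM), a scavenger of inflammatory CC ligands. By the q in the authors' deposited table, with the shift kept, 2 were higher and 1 lower. Over all tested genes 8.26% rose and 9.89% fell in the recomputed test. By the authors' q the shares were 54.6% higher and 3.46% lower. Cxcr7, which takes up Cxcl12, was 13.34 and 19.12 FPKM at E16.5 and not called, and 7.9 and 16.26 FPKM in dermis. Darc, the erythrocyte and venule receptor, was 1.31 and 7.77 FPKM in dermis. The 9 blood endothelial markers, none at 0, summed to 326 and 441 FPKM there, and 6 of 9 were 2-fold higher, where 14% of all genes were. Their part in the Darc values was not tested.

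Genes upstream of inflammatory chemokines were mixed. Over all tested genes at E16.5, 8.26% rose and 9.89% fell in the recomputed test. Of 16 tested cytokine and cytokine receptor genes, Il33, an alarmin, rose at E16.5 (1.95 to 5.11 FPKM), while Il1a (2.41 to 0.28 FPKM) and Il6ra (6.98 to 3.68 FPKM) fell. Of 16 NF-κB pathway genes 3 rose and 1 fell. The latter was Nfkbiz, whose call rests on single transcripts, while its summed level was 3.4 and 4.95 FPKM (relative difference 0.008). Nfkbia, the inhibitor that NF-κB itself induces, was among those that rose (36.49 to 77.56 FPKM). Of 20 interferon response genes 4 rose and 3 fell. Among the 20 genes Oasl2 rose (0.27 to 1.78 FPKM) and Mx1 fell (3.01 to 1.37 FPKM). The other genes called lower were Irf1 (4.9 and 7.35 FPKM) and Irf9 (10 and 15.36 FPKM). Their calls too rest on single transcripts, and their summed relative differences were 0.07 and 0.14, so their gene levels did not fall. The median relative differences of these lists were -0.16, -0.04 and 0.22. With the shift kept, the q of the authors' deposited table called 6, 9 and 12 of them higher and 2, 0 and 1 lower. Over all tested genes that q called 54.6% higher and 3.46% lower. In dermis, where 14% of all genes were 2-fold higher and 13.9% lower, 6 of 15 interferon response genes at 1 FPKM were 2-fold higher and 0 lower, such as Isg15 (2.72 and 10.84 FPKM). Of 16 NF-κB pathway genes 1 was 2-fold higher and 2 lower, and of 10 cytokine and receptor genes 1 was higher and 0 lower. The 1 that was higher was Tnf, an inducer of Ccl2, at 0.29 and 3 FPKM. Tnf reached 1 FPKM only in the mutant library, so the filter itself required a higher mutant value.

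Of 9 retinoic acid response genes tested at E16.5, 8 rose and none fell, and the median relative difference was 0.98. Over all tested genes 8.26% rose and 9.89% fell. The 7 lens and retina genes summed to 12.8 and 1459 FPKM at E16.5, with Cryaa at 3.75 and 476.5 FPKM, so null E16.5 libraries carried eye transcripts that wild-type libraries nearly lacked. Their part in the E16.5 chemokine values was not tested.

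**Figure D4:**
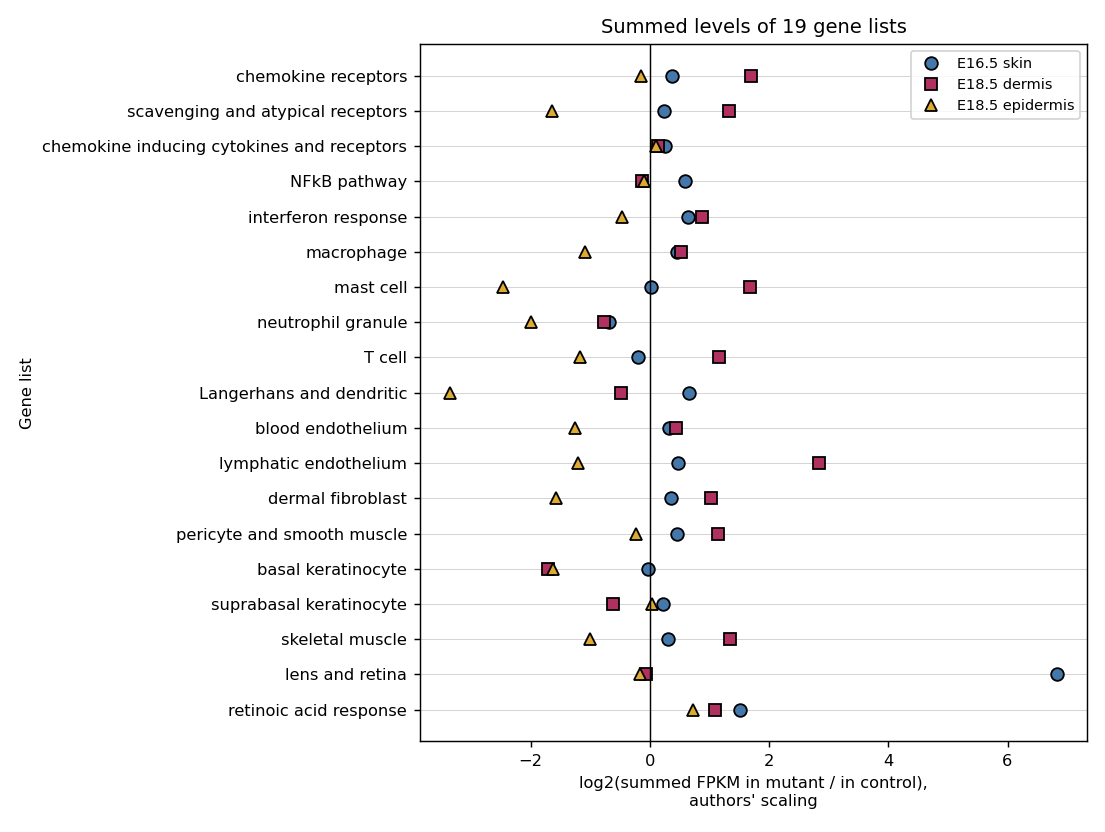
log2 ratio of the summed FPKM of 19 gene lists in mutant over control, on the authors' scaling with no error bar, since no spread between libraries can be computed. Circles are E16.5 skin, squares E18.5 dermis and triangles E18.5 epidermis. Chemokine receptor, mast cell and lymphatic sums lie to the right in dermis, and basal keratinocyte sums lie to the left in both E18.5 tissues.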

How the data were processed

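Transcript FPKM values were deposited by the authors to 2 decimals, with 1 row per RefSeq transcript and 1 column per group, per the file headers. Each of the 3 tables was normalised separately. The submitters' processing notes name Cuffdiff 1.3.0, Cufflinks, TopHat 1.3.2 and Bowtie 0.12.7.0 and the mouse build mm9. Gene model and strand setting: not given in the sources used here. RNA was extracted with Trizol, and TruSeq libraries were run on a HiSeq2000, per the labels' protocols. The log2 folds, test statistics, p-values and q-values are those of the authors' deposited tables. Depth is unknown, because FPKM carries no counts, and no count test was run.

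FPKM were summed per symbol, and the pseudocount, the centring and the E16.5 test are as described in the results. A gene counted as risen or fallen if 1 or more of its transcripts passed in that direction and none in the opposite one, at a q threshold of 0.05, and transcripts at 0 in 1 group kept the authors' call. The SE comes from Cuffdiff's model and holds no spread between animals. Genes with a row whose status was FAIL, HIDATA or LOWDATA were left out of the folds and of the median. The procedure was tested on simulated data. Scripts used Python 3.11.15, pandas 2.3.3, numpy 2.4.6 and scipy 1.17.1. Gene positions come from GENCODE vM1, where 38 of the 39 genes were found.

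The ligands, their roles and the 19 gene lists were chosen with earlier results of these data known. Every ligand is named, together with receptors of at least 1 FPKM, the receptor of each described ligand, up to 4 genes per other list (those of widest relative difference at 1 FPKM or more), and Cyp26b1. Named in addition, after their values were seen, were Il11ra1, Krt5, Krt14, Prox1, Cd3e, Elane, C1qa, C1qc, Il33, Nfkbiz, Irf1, Irf9 and the markers listed at 0. Some single genes of the lists are not reported here. Alternatives varied the pseudocount, the filter, the scaling, the rows summed, the threshold, the centring and the SE.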

Additional observations from a re-analysis of the deposited data

How the results depend on the processing

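No paired analysis was possible because the deposited E16.5 columns pool the libraries that share replicate numbers, and E18.5 has 1 library a group; for the same reason no replicate could be left out. At E16.5 the count of ligands that rose was 3, and it was 8 by the authors' q and 1 (Ccl6) at a threshold of 0.01. The count that was lower was 2, and 1 (Cxcl14) at a threshold of 0.01. Ccl8 holds the authors' own call under the other settings, so their count does not test it, while the 4 recomputed calls were also made by the authors' q. At E16.5 the ligands 2-fold higher numbered 1, against 3 with a pseudocount of 0.1, 0 with a pseudocount of 5 and 3 on the authors' scaling, and those 2-fold lower 1, against 0 with a pseudocount of 5 and 0 on the authors' scaling. In dermis the ligands 2-fold higher numbered 4, against 7 with a pseudocount of 0.1, 1 (Cxcl12) with a pseudocount of 5 and 2 (Ccl2 and Cxcl12) at 5 FPKM or more. The epidermal counts did not move by over 1.5 times, and of the ligands called at 2-fold or by the test only Ccl20 changed sign, from a relative difference of 0.49 to -0.026 with a pseudocount of 5. Of the ligands not called at E16.5, Ccl2, Ccl4, Ccl9, Ccl24, Ccl25 and Cxcl16 also turned negative with that pseudocount. Averaging copies of 1 transcript, an alternative chosen after seeing the data, moved no count. Values near 1 FPKM rest on an unknown number of fragments, and the E18.5 values on 1 library each.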
